A study of Drosophila melanogaster with 2 samples.

Results

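The 8 genes described here encode ligands and receptors of axon guidance at the ventral midline of the Drosophila melanogaster embryo, and were listed by name: sli, robo1, robo2, robo3, NetA, NetB, fra and unc-5, of 13945 protein-coding genes on the 6 main chromosome arms. Chromatin immunoprecipitation and sequencing (ChIP-seq) located Sloppy paired 2 (Slp2), a forkhead protein that binds DNA, in 2 samples of whole embryos, biological replicates 2 and 3, which form 1 group. Both came from a transgenic line (strain 9T-GFP) with green fluorescent protein at the C terminus of Slp2, were collected at 0 to 24 hours of age with the sexes pooled, and were precipitated through the fluorescent tag, although a label field names slp2 as the antibody. Which regulatory sequence drives the tagged gene is not given in the sources used here. A peak stands for all cells of the embryo together, so many weakly bound cells and few strongly bound ones cannot be told apart. The authors deposited a relaxed peak list for each replicate, one for both pooled, and a list of 3203 peaks that passed the irreproducible discovery rate (IDR), which asks how well peak ranks repeat between replicates. The IDR list is the 3203 strongest pooled peaks. The relaxed lists hold 30000 peaks for each replicate and 28637 for both pooled. The signal value given for each peak is a score from the authors without a stated scale, so ranks are given with it (rank 1 is the strongest), and the pooled value has no error of its own. With 1 group and no second condition no test was run, and the read depth of the samples is unknown.

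Slit, secreted by midline glia, repels axons through the receptors Robo1, Robo2 and Robo3. Robo1 and Robo2 keep axons from crossing or recrossing the midline, and Robo2 and Robo3 help to set how far from the midline axons run. The Netrins, secreted at the midline and by muscles, attract axons through Frazzled (the fly relative of DCC), while Unc-5 mediates repulsion from Netrin. Slp2 belongs to the forkhead family, whose members bind sequences related to TAAACA, and is known as a segmentation and neuroblast factor.

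The following sequences show the strongest summits of the robo2, robo3 and NetA windows and the summit at the robo2 promoter, so that the letters under the peaks can be compared. All are plus-strand dm6 sequence of the Release 6 assembly and contain no annotated exon. Capitals mark, on either strand, the forkhead core TAAACA and the GAGA element GAGAG, whose shares over all IDR peaks are given with the motif counts. The robo2 upstream sequence is chr2L:1433800-1434000, the robo2 promoter sequence is chr2L:1420454-1420578, the robo3 sequence is chr2L:1312484-1312684 and the NetA intron sequence is chrX:14627509-14627709. The robo3 sequence surrounds a relaxed peak, because robo3 has no IDR peak.

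robo2 upstream: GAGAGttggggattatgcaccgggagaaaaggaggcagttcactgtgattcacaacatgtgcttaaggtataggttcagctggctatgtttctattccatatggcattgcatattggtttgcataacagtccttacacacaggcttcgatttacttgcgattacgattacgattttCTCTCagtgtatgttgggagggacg
robo2 promoter: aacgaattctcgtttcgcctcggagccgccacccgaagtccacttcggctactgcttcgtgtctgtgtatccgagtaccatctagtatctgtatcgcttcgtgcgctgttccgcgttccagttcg
robo3 downstream: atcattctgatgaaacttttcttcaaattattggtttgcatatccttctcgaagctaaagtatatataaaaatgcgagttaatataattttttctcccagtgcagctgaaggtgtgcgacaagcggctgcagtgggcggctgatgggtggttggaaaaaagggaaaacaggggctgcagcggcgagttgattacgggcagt
NetA intron: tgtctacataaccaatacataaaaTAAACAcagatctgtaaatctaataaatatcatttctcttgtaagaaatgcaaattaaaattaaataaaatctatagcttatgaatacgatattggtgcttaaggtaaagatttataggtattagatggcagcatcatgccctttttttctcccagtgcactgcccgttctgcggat

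In the NetA sequence the core TAAACA lies 76 to 71 bp left of the summit. That is outside the 50 bp of the main motif count, so the NetA summit is not among the 7 with a core there. Within 100 bp a core was found at 26.6% of all IDR summits. The robo2 upstream sequence holds GAGAG on both sides of the summit, 100 to 96 bp left and 76 to 80 bp right of it, and no forkhead core. The robo2 promoter and robo3 sequences hold no match to any motif searched.

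Each gene was given a window of its body and 20 kb at both ends. Of the 8 genes, 7 had an IDR summit in the window and robo3 had none. Among all 13945 genes 69.1% had one, so that count by itself lies near the background. In the body itself 5 of the 8 had an IDR summit (sli, fra, NetA, NetB and unc-5), against 9.06% of all genes. That share covers genes of every length. Among genes whose body length was within 25% of the member's, the share with an IDR summit in the body ranged from 35.7% for the class of fra to 43.6% for that of NetB, and was 16.3% for the short robo1. An IDR summit lay in the body or within 5 kb for 6 of the 8, against 39.4% of all genes. That share, too, covers every length, and none was counted here for genes of like length.

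The 8 windows, merged where those of NetA and NetB overlap, covered 629945 bp and held 29 IDR summits, or 4.6 per 100 kb, beside 2.43 per 100 kb on the rest of arms 2L, 2R and X. No summit was counted for more than 1 gene. The bodies held 15 (4.72 per 100 kb) and the flanks 14 (4.49 per 100 kb), of which 8 lay upstream and 6 downstream. Of the 29, 13 were intronic (44.8%, against 31.8% of all IDR summits), 8 intergenic (27.6% against 14.1%), 7 at promoters (24.1% against 50.9%) and 1 in an untranslated exon. A promoter here means within 500 bp of the transcription start site (TSS) of a protein-coding gene. The median distance to the nearest TSS was 2528 bp, beside 468 bp over all IDR summits.

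**Figure D1:**
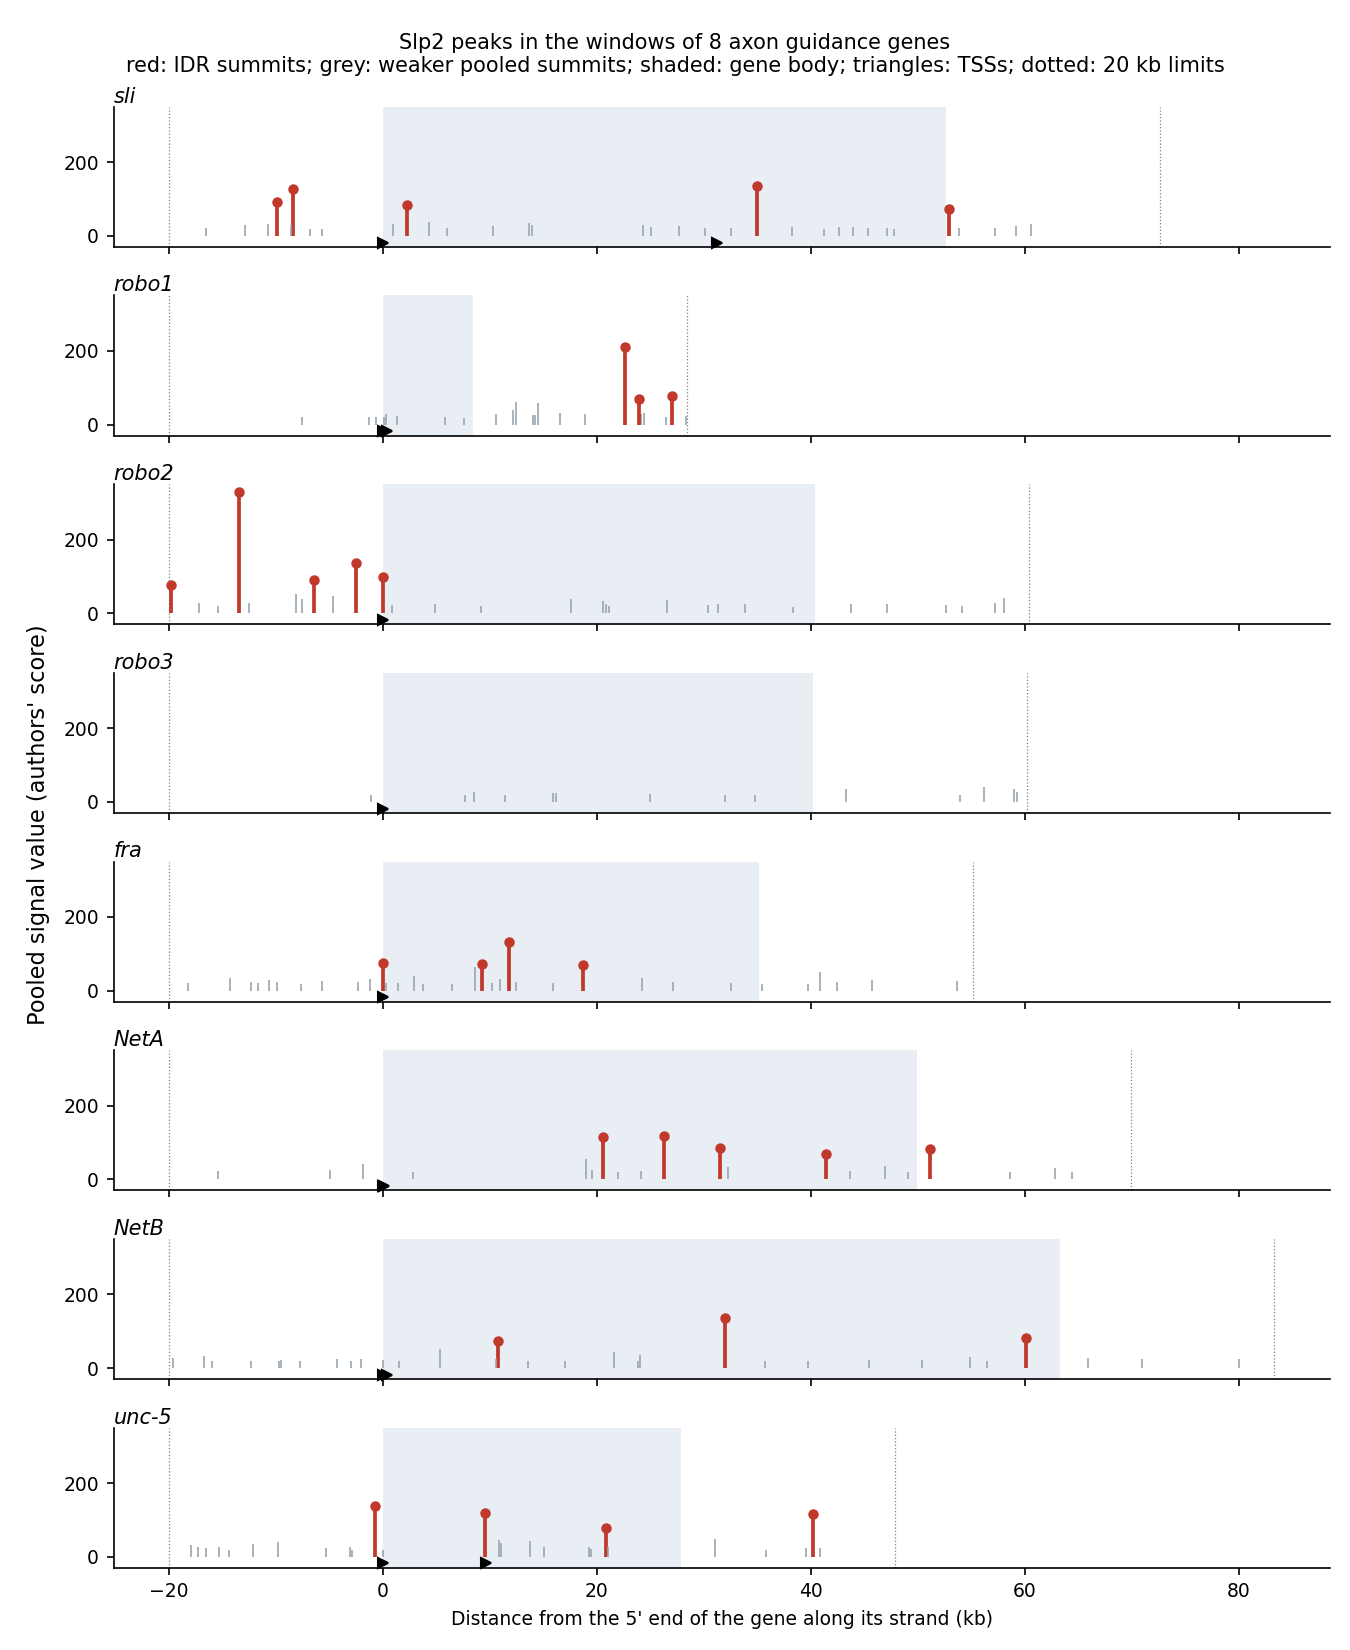
Pooled summits in the windows of the 8 genes, by distance in kb from each gene's 5' end along its strand, with the authors' signal value as height. Red summits are in the IDR list and grey ones are not; 5 red summits stand upstream of robo2 and none in its body, NetA has 4 in its body, and robo3 has only grey ones.

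The summits were of middling strength. Their signal ran from 68.1 to 328 with a median of 90.4, where the whole IDR list had a median of 102, and 12 of the 29 exceeded that. Ranks ran from 143 to 3012 with a median of 1945.

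The ligand gene sli (2R:15869495-15922118, minus strand, FBgn0264089) had 5 IDR summits. The strongest lay in intron 2 of 19 at 15887162, 3755 bp downstream of the internal sli TSS, with a pooled signal of 137 (rank 943), 84.2 in replicate 2 (rank 687) and 53.9 in replicate 3 (rank 1351). Another, at 15919823 in the 30358 bp first intron, 2295 bp from the 5' TSS, had a pooled signal of 83.2 (rank 2185), with 47.5 in replicate 2 (rank 2144) and 29.1 in replicate 3 (rank 3393). These were the ones with a sli TSS as the nearest. The other 3 stood at neighbours. A summit at 15930518 lay in an intron of bdg, which encodes a neurotransmitter transporter-like protein (signal 127, rank 1087), and one at 15932031 lay 96 bp from a bdg TSS (signal 92.6, rank 1865). The remaining summit lay 59 bp from the TSS of Rif1, a replication timing gene, and 289 bp past the end of sli (signal 72.4, rank 2734). Of 529 genes with windows of like length, 13.6% had 5 or more IDR summits. When the 3203 strongest peaks of replicate 3 alone were used, the sli window held 3.

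Of the Netrin genes, NetA (X:14604012-14653928, minus strand, FBgn0015773) had 5 IDR summits, 4 of them inside its introns and all more than 20 kb from its TSSs. The strongest, at 14627609 in the 31254 bp first intron, had a pooled signal of 117 (rank 1250), 69.9 in replicate 2 (rank 1027) and 47.3 in replicate 3 (rank 1673). It was 26225 bp from a NetA TSS. In the same intron a summit at 14633324 had a signal of 114 (rank 1323; 61.6 and 52.1 in replicates 2 and 3) and was the one with a NetA TSS as the nearest, at 20510 bp. Both exceeded the median signal of the IDR list and were among the 3203 strongest peaks of each replicate. A further first-intron summit at 14622418 had a signal of 85.5 (rank 2106; 50.7 and 35.9). The summit at 14612502 in intron 2 of 6 was uneven, with 21.2 in replicate 2 (rank 8644) and 51.7 in replicate 3 (rank 1452). The last lay past the end of NetA, 161 bp from the TSS of sbm, an amino acid transporter gene (signal 83.6, rank 2161). The TSS of sbm was also the nearest for the summits at 14627609, 14622418 and 14612502. The promoter of NetA had no IDR summit, and the strongest relaxed summit upstream of the gene, at 1886 bp (14655814), ranked 6366 with a signal of 41.2.

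NetB (X:14686038-14749376, minus strand, FBgn0015774), which lies beside NetA, had 3 IDR summits over a longer body, all inside it. The strongest lay at 14717428 in the 53377 bp intron 3, with a pooled signal of 135 (rank 970), 84.0 in replicate 2 (rank 690) and 48.6 in replicate 3 (rank 1591). The nearest TSS was that of hog, at 1514 bp. In an untranslated exon of NetB, 3212 bp from the end of the gene, a summit at 14689250 had a signal of 82.8 (rank 2201), with 42.2 and 41.5 in replicates 2 and 3. Its nearest TSS was that of CG5321, at 9682 bp. The summit at 14738624, in intron 3 too and 10386 bp from a NetB TSS, had a signal of 73.5 (rank 2668) and was again uneven, with 25.7 in replicate 2 (rank 6147) and 44.6 in replicate 3 (rank 1852). Of 386 genes with windows of like length 37% had 3 or more, so many genes of that length had as many as NetB.

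The 3 Robo receptor genes differed widely in where peaks lay. At robo2 (2L:1380086-1420453, minus strand, FBgn0002543) all 5 IDR summits were upstream of the gene and none was in its 40368 bp body. The strongest of all 29, at 1433900 (peak 1433783 to 1434020), lay 13447 bp upstream of robo2 and 5426 bp from the TSS of CG43401. Its pooled signal was 328 (rank 143, 3.21 times the IDR median), with 156 in replicate 2 (rank 177) and 167 in replicate 3 (rank 138). Both replicates thus placed it near the top of their lists. A summit at 1422981, 2528 bp upstream of the robo2 TSS, had a signal of 137 (rank 934), with 69.6 in replicate 2 (rank 1036) and 70.5 in replicate 3 (rank 840). The promoter summit at 1420478, 25 bp upstream of the TSS, had a pooled signal of 99.4 (rank 1668) but stood at 80.8 in replicate 2 (rank 756) and 21.8 in replicate 3 (rank 5706). The summits at 1426927 (signal 90.4, rank 1945) and 1440228 (signal 75.6, rank 2542) had TSSs of CG43401 and CG43402 as the nearest, and the latter, at 19775 bp from the gene, lies just inside the window. In replicates 2 and 3 the former ranked 1605 and 3389, and the latter 2377 and 2399. Of 774 genes with windows of like length, 12.1% had 5 or more. The count was 3 with the strongest peaks of replicate 3 alone, 3 with flanks of 10 kb and 2 with flanks of 5 kb.

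At robo1 (2R:22692524-22700970, minus strand, FBgn0005631), a gene for a receptor that keeps axons from crossing the midline, the 3 IDR summits lay downstream. They stood from 14152 to 18627 bp past the end of the gene. All had the TSS of RYBP, a gene for a Polycomb-associated protein, as the nearest. The strongest, at 22678372, had a pooled signal of 209.8 (rank 394), with 124 in replicate 2 (rank 305) and 86.1 in replicate 3 (rank 573). The others, at 22673897 and 22677061, had signals of 78.5 (rank 2405) and 68.1 (rank 3012). In replicates 2 and 3 the former ranked 1956 and 3240, and the latter 6505 and 2536. None lay within 10 kb of robo1. Inside robo1 the strongest pooled summit, at 22700630 and 35 bp from its internal TSS, ranked 11350 with a signal of 29.3. The strongest of replicate 2 in the body lay 158 bp from that TSS (signal 28.3, rank 5212) and that of replicate 3 in a coding exon (signal 13.7, rank 18057).

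No IDR summit was found for robo3 (2L:1256417-1296596, plus strand, FBgn0041097) in a window of 80180 bp, and none of the strongest 3203 peaks of either replicate lay there. Among 779 genes with windows of like length 25.8% likewise had none. The strongest pooled summit in the window, at 1312584, lay beyond the end of the gene, 16577 bp from the TSS of a5, and ranked 6358 with a signal of 41.2, with 14.0 in replicate 2 (rank 17154) and 23.4 in replicate 3 (rank 4911). In the body the strongest was at 1264958 in intron 1 of 12, with a signal of 26.5 (rank 13782). The body of robo3 held 8 relaxed summits in the pooled list, 7 in replicate 3 and 0 in replicate 2.

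The whole of robo3 and the body of robo2 lie in one stretch without IDR summits, which runs 234651 bp from 1185827 to the robo2 promoter summit at 1420478 and holds 21 protein-coding genes in full. Of the 3197 stretches between neighbouring IDR summits on an arm, 52 (1.63%) were at least as long, and the median was 15105 bp. That is a share of stretches and not of genes, and the stretch was picked because it holds robo3. Relaxed summits were not missing from it. The pooled list had 23 per 100 kb there and 22.9 over arm 2L, and replicate 3 had 23.9 and 24.5. Replicate 2 had 14.9 against 23.1. The stretch had no unknown bases (0) and 56.7% A and T, beside 58.2% over the arm.

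The Netrin receptor gene fra (2R:12529053-12564184, plus strand, FBgn0011592) had 4 IDR summits, all in its body. One, at 12529093, lay 40 bp downstream of its TSS with a signal of 74.8 (rank 2579), with 44.7 in replicate 2 (rank 2383) and 22.3 in replicate 3 (rank 5432). The other 3 lay in the 26746 bp first intron and had the TSS of CG33752 as the nearest. Of these the strongest, at 12540811, had a pooled signal of 132 (rank 1007), 67.7 in replicate 2 (rank 1105) and 60.8 in replicate 3 (rank 1104). The summits at 12538320 (signal 73.0, rank 2694) and 12547734 (signal 70.8, rank 2831) were weaker, and the latter had 55.1 in replicate 2 (rank 1629) and 16.2 in replicate 3 (rank 11882). The log2 ratio of replicate 3 to replicate 2 ran from -1.77 to -0.15 over the 4, beside a median of -0.15 over all IDR peaks. With the strongest peaks of replicate 3 alone fra had 2, and with those of replicate 2 alone 5. The summit just below the IDR limit among all 8 windows also lay here, at 12537660 (signal 64.5, rank 3268 of the pooled list), while the weakest inside it was the robo1 summit of rank 3012.

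The repulsive Netrin receptor gene unc-5 (2R:15340472-15368300, plus strand, FBgn0034013) had 4 IDR summits. The strongest, at 15339702, lay 770 bp upstream of its 5' TSS with a signal of 138 (rank 923), 69.2 in replicate 2 (rank 1048) and 74.2 in replicate 3 (rank 760). A summit at 15349996 lay 137 bp upstream of the internal TSS, 9661 bp into the gene, with a signal of 119 (rank 1229), 63.0 in replicate 2 (rank 1276) and 62.3 in replicate 3 (rank 1047). Both unc-5 start sites thus had an IDR summit within 1 kb, and both summits were among the 3203 strongest peaks of each replicate. A summit in intron 6 of 10, at 15361313, had a signal of 78.2 (rank 2420) and the TSS of Pms2 as the nearest, at 10207 bp. The ranks of this summit lay further apart, at 1858 in replicate 2 (signal 51.4) and 3819 in replicate 3 (signal 27.1). The last, 12393 bp past the end of unc-5, lay 31 bp from the TSS of SRPK, an SR protein kinase gene (signal 117, rank 1266).

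Taking the nearest TSS as the gene of a peak, 9 of the 29 summits belonged to a guidance gene of the 8: 2 each to sli, robo2 and unc-5, and 1 each to fra, NetA and NetB. That is 6 of 8 genes, against 16.8% of all genes of every length. No such share was counted for genes of like length. Median windows were about 80300 bp for the 8 and 42200 bp for all genes. A summit within 500 bp of an own TSS was found at 3 of 8 (robo2, fra and unc-5), against 15.2% of all genes. Of these, the robo2 and fra summits were not among the 3203 strongest peaks of replicate 3 (ranks 5706 and 5432). The unc-5 summit was among those of both replicates. In 5 of the 8 genes the strongest summit of the window was nearest to a TSS of another gene, namely robo1, robo2, fra, NetA and NetB, and robo3 had no IDR summit. For fra, NetA and NetB that summit lay inside an intron of the guidance gene itself.

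**Figure D2:**
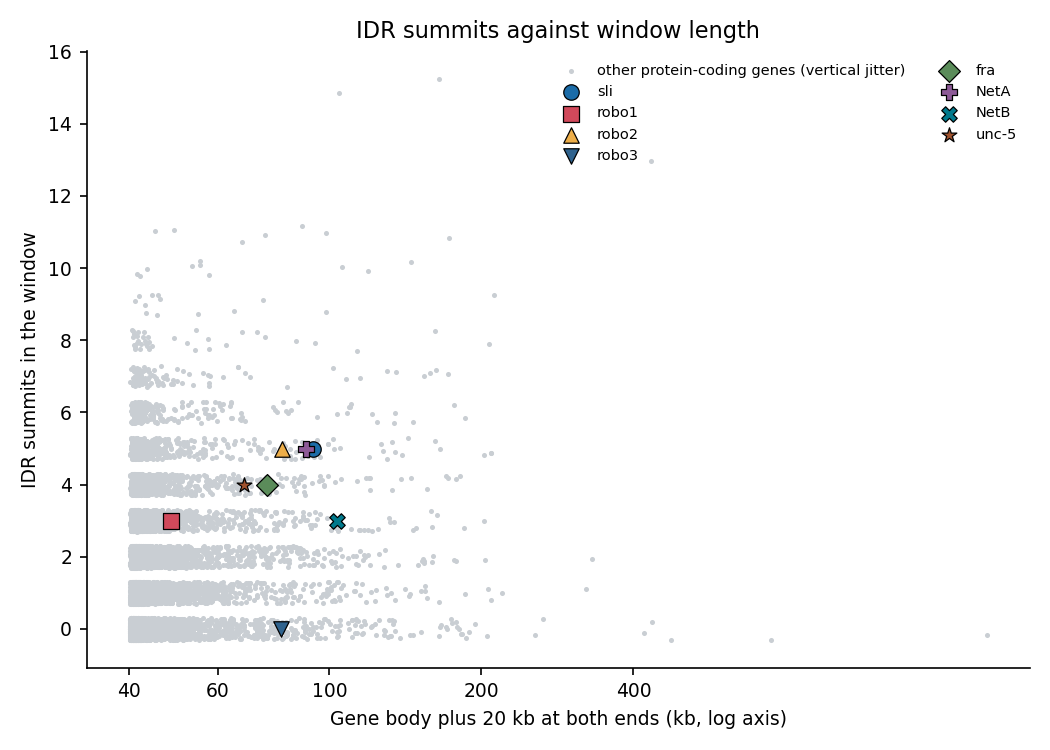
IDR summits in the window of each protein-coding gene (vertical axis) against window length in kb (log axis), with the 8 genes as large symbols and other genes as grey points, spread vertically for legibility. The members with 3 to 5 summits lie within the range of other genes of their length, and robo3 lies at 0.

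How far the replicates shared these peaks was asked by rank, since their signal values have no common scale. Every one of the 29 had a summit within 200 bp in both relaxed lists, as had 3148 of all 3203 IDR summits. Some of these matches were weak, such as rank 11882 in replicate 3 at the fra summit at 12547734. Of the 29, 25 were among the 3203 strongest peaks of replicate 2 and 21 among those of replicate 3. Both held 18 (62.1%, beside 69.7% of all IDR summits), and 1, the Rif1 promoter peak past the end of sli, was in neither. The median log2 ratio of replicate 3 to replicate 2 was -0.28 with a standard deviation of 0.67 over the 29, and -0.15 with 0.65 over 3148 IDR peaks with a summit in both. The widest ratios were -1.89 at the robo2 promoter and -1.77 at the fra intronic summit at 12547734 in one direction, and 1.29 at the NetA summit in intron 2 in the other.

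**Figure D3:**
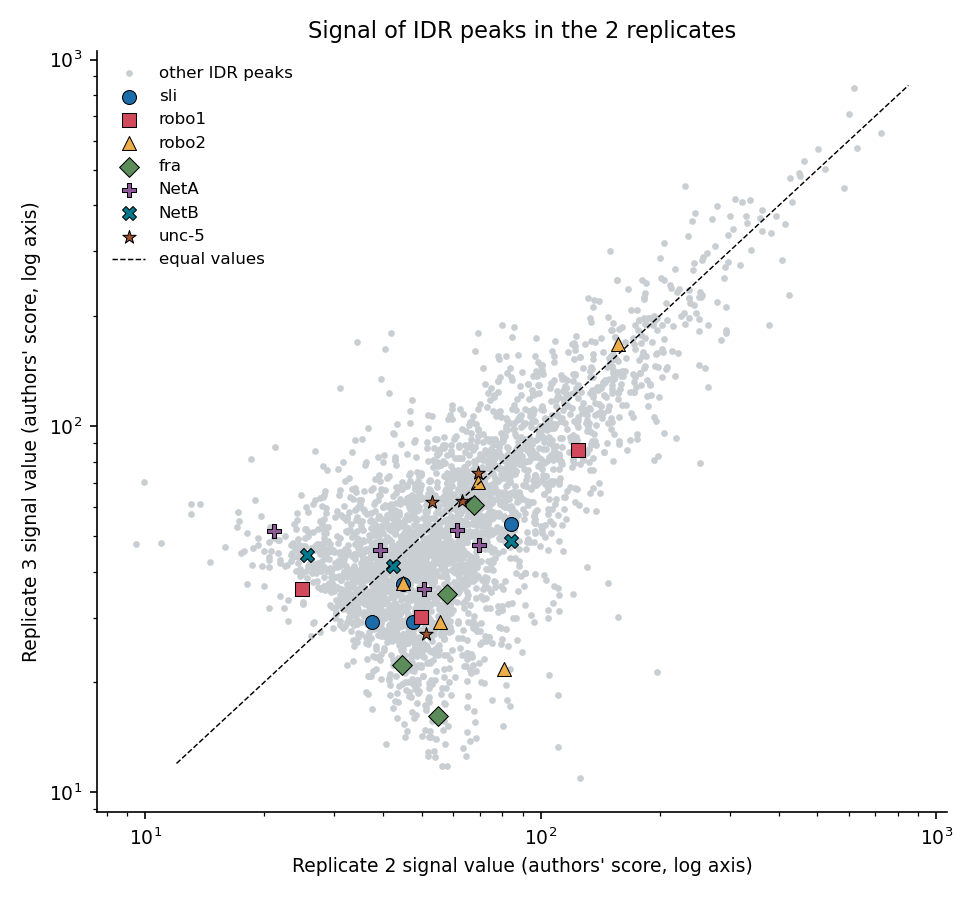
Signal values (log axes) of IDR peaks in replicate 2 and replicate 3, with other IDR peaks in grey, the 29 peaks in the windows in colour, and a dashed line at equal values. The robo2 upstream peak stands highest of the 29 in both (156 and 167), and the robo2 promoter peak lies far below the line (80.8 and 21.8).

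A few strong replicate peaks in the windows had no IDR summit within 200 bp. Replicate 2 had one at 22686481, downstream of robo1, with signal 59.5 (rank 1413) and no replicate 3 summit within 200 bp, and one in the first intron of fra at 12537658 (signal 41.8, rank 2682). Replicate 3 had one at 22688537, 450 bp from the TSS of Ppa and also downstream of robo1 (signal 32.6, rank 2910), and one in the first intron of NetA at 14634970 (signal 31.9, rank 3002).

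The relaxed lists hold background beside peaks, per the readme files. In the 8 windows the pooled list had 33 summits per 100 kb (21.1 on the rest of the 3 arms), replicate 2 had 31.1 (22.4) and replicate 3 had 27.3 (21.7). By gene, the pooled density ran from 17.5 at robo3 to 47.5 at robo1. At robo3 replicate 2 listed 5 summits in the window, or 6.24 per 100 kb, and replicate 3 listed 17, or 21.2 per 100 kb. Of the pooled summits, 58.6% at robo2 and 57.7% at unc-5 had a summit of both replicates within 200 bp, and 21.4% (3 of 14) at robo3, beside 39.4% of all pooled summits.

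**Figure D4:**
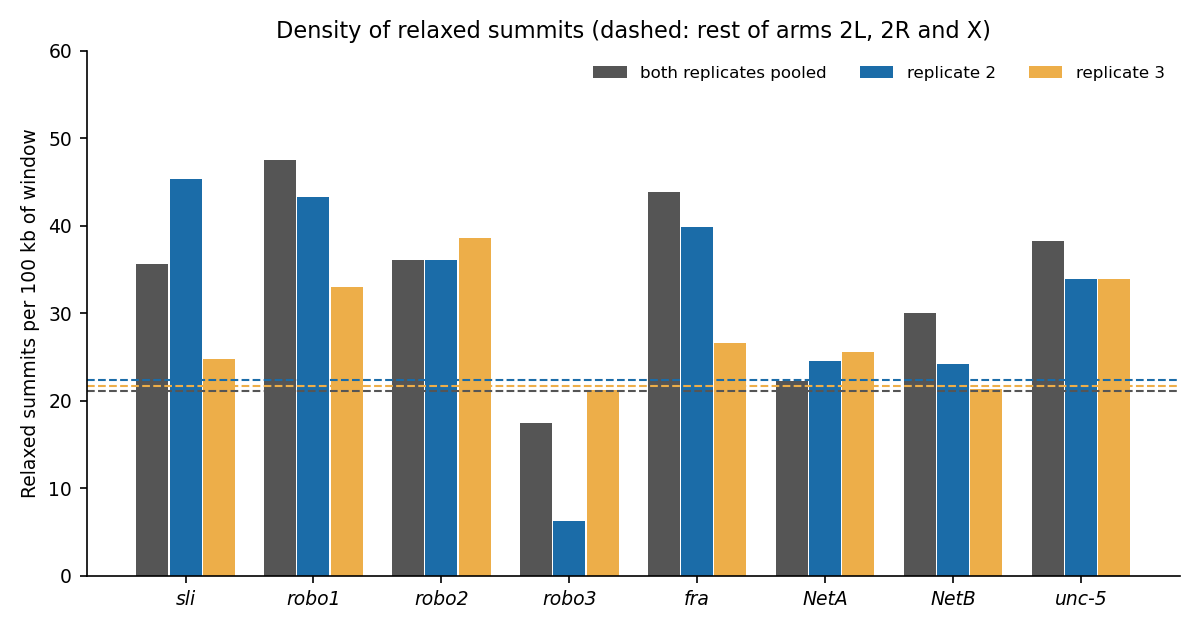
Relaxed summits per 100 kb of window for each gene, in the pooled list and each replicate, with dashed lines at the density on the rest of the 3 arms. The bar of replicate 2 at robo3 (6.24) is the lowest of the 24 plotted, and that of the pooled list at robo1 (47.5) is the highest.

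Forkhead letters were looked for within 50 bp of the summit, on both strands. The core TAAACA was found at 7 of the 29 summits (24.1%, beside 15.5% of all IDR windows of the same length) and the stricter GTAAACA, which contains the core, at 3 (10.3% beside 3.97%). Within 100 bp the shares were closer, 31% beside 26.6% for the core and 10.3% beside 7.24% for the strict form. Of the 3 with the strict form, the fra summit at 12540811 and the summit downstream of robo1 at 22673897 had its centre 25 and 35 bp from the summit. At the robo1 summit a second match of the core alone was centred 1.5 bp away. The core alone stood at sli 15919823, NetA 14633324 and unc-5 15361313 and at the SRPK promoter. None of the 5 robo2 summits held either form within 50 bp. TATCGATA, the DREF element, was found at 1 (3.45% beside 2.25%), GAGAG at 4 (13.8% beside 10.5%) and CAGGTAG, the Zelda element, at 0 (0% beside 0.562%). Within 100 bp, the span of most of the printed sequences, GAGAG was found at 9 (31% beside 23.7%). A and T made up a median of 65.3% of these windows, as over all IDR summits.

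Other genes of the pathway were counted from 3 lists of 70 symbols. Of 27 partners of Slit and Netrin signalling, 26 had an IDR summit in the window of 20 kb (96.3%), beside 69.1% of all genes, with a median of 2. Of the 27, 9 had one within 500 bp of an own TSS, beside 15.2% of all genes, and 10 had one with an own TSS nearest. No share was counted here for genes of like length. The strongest with an own TSS nearest were at RhoGAP93B, which encodes a GTPase-activating protein that binds Robo (signal 155, rank 726, 110 bp from the TSS), and Sdc, the syndecan that aids Slit signalling (signal 139, rank 903, at 5425 bp). The kinase gene Abl (signal 116, rank 1284, at 113 bp) and Rho1, a small GTPase gene (signal 107, rank 1469, at 31 bp), followed. Rac2 had none. Of 35 other guidance ligands, receptors and adhesion molecules, 23 had a summit in the window (65.7%), with a median of 1, and 5 had one at an own promoter. Both lie near the shares over all genes, 69.1% and 15.2%, while the counts in the body, given below, lie higher. Ptp4E, a receptor tyrosine phosphatase gene, led with a signal of 238 (rank 305, at 394 bp), before the adhesion gene Fas3 (signal 178, rank 549, at 5186 bp), the teneurin gene Ten-a (signal 149.9, rank 776, at 8188 bp) and dnt, a Ryk-family receptor gene (signal 140.0, rank 889, at 5003 bp). The genes beat-Ia, beat-Ic, Con and Dscam2 were among the 12 with none. Of 8 regulators of midline and motor neuron fate, 6 had a summit in the window (75%), near the 69.1% of all genes. Where an own TSS was the nearest, it lay at 15219 bp for mid (signal 286, rank 203), 1489 bp for zfh1 (signal 194, rank 475), 18188 bp for tup (signal 165, rank 633) and 4157 bp for sim, the midline master regulator (signal 103, rank 1587). HGTX and exex had none. For the 8 ligand and receptor genes the median was 4, and for all protein-coding genes 1, with median windows of about 80300 and 42200 bp. In the body 16 of the 35 other guidance genes (45.7%), 11 of the 27 partners (40.7%) and 2 of the 8 regulators (25%) had a summit. With an own TSS nearest the counts were 16, 10 and 4. The shares over all genes, 9.06% and 16.8%, were lower but cover every length. Median windows of these lists were about 77800, 50700 and 58300 bp.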

How the data were processed

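Peaks were read from the lists deposited on dm6 in narrowPeak format. Per the deposited readme files, each relaxed list came from the alignments of 1 sample, or of both, with a further data set, and the IDR list from these. The control itself, the dm3 lists and the tracks were not used here. Aligner, caller, IDR threshold and read depth are not given in the sources used here. Chromatin was sheared to 200 to 800 bp, per the labels. The signal value is the authors' score per peak. The deposited -log10 q values were read but not used for ranking.

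A summit is the start plus the summit offset, counted from 1. Genes, exons and TSSs were those of Ensembl 115 (BDGP6.54), in dm6 coordinates. Replicate values are those of the strongest summit within 200 bp. Introns are numbered from the 5' end in the longest transcript that spans the summit. Flank, summit rule, list, strength, motif form and window were varied. Counting was tested on planted summits. Python 3.11.15 was used.

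The genes and lists were chosen with earlier results of these data known, so counts are descriptions. All 8 members are named, with the gene of the nearest TSS of each summit, and from each list up to 4 genes with the strongest summit nearest an own TSS and up to 4 without a summit, in alphabetical order. RhoGEF64C was matched through an older symbol, Gef64C. One sequence is not reported here.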

Additional observations from a re-analysis of the deposited data

How the results depend on the processing

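No paired analysis was possible because the samples form 1 group. Of 34 alternative counts, 30 stayed within 1.5 times the reported one. Keeping only IDR peaks above the median signal gave 12 summits in place of 29, 5 in place of 9 with a guidance gene's TSS nearest and 4 in place of 7 with a forkhead core, by its construction. The strict forkhead form gave 3. With either replicate left out, the strongest peaks of the other gave 23 to 28 summits, 7 to 8 with such a TSS nearest, 6 to 8 with a forkhead core, 7 genes with a summit in the window and 5 with one in the body. The count in both strongest sets needs both replicates and has no value with either left out. Of 48 alternative counts of summits per gene, 34 stayed within 1.5 times. With flanks of 5 or 10 kb 6 genes had a summit, since robo1 then had 0. With whole peaks in place of summits 6 had one in the body. The robo3 count was 0 in every alternative run for it. Unknown depth limits what a missing peak at robo3 can show, and no control precipitation was analysed here.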
